A study of Homo sapiens with 3 samples.

Results

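The regions described here are H3K27ac peaks that were present in both libraries with that antibody and lay at an end of a single protein-coding gene. They were chosen by their measured presence: rows of the BPP list on chromosomes 1 to 22 and X that shared at least 1 bp with a CTR peak, shared no base with an IgG peak, and reached the 1 kb windows on either side of the start or end coordinate of exactly 1 protein-coding gene. The rule found 2833 of the 17841 BPP peaks (15.9%), at 2738 of the 19974 protein-coding genes. The background to read gene counts against is therefore 13.7% of all protein-coding genes, the share with such a peak. Of the 4134 BPP peaks at one gene end without IgG overlap, 68.5% overlapped a CTR peak. That share is the selection itself and nothing is read from it.

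The libraries came from A2780, an established human ovarian carcinoma cell line, and were made by CUT&Tag, in which an antibody guides a transposase that cuts and tags the chromatin around its target. BPP is H3K27ac in cells given a peptide that by the series design competes for the phosphorylation site of BIN2. CTR is H3K27ac in control cells, whose treatment is not given in the sources used here, and IgG is the antibody background. Each group had 1 library, so no difference between BPP and CTR has a replicate check, no p-value is given, and the depth is unknown. All intervals below are 95% intervals that cover counting error only.

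H3K27ac is acetylation of a lysine in the tail of histone H3. It is laid down by acetyltransferases such as EP300 and CREBBP, removed by histone deacetylases and read by bromodomain proteins. The mark sits on the nucleosomes that flank active promoters and enhancers. At a promoter the DNA just before the start of transcription is usually kept clear of nucleosomes, and in mammals most broadly used promoters are rich in the dinucleotide CpG and lack a TATA box.

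The promoter sequences under the strongest of these peaks show the elements that the later comparisons count. They are RefSeq sequences of GRCh38.p14, read 5′ to 3′ on the strand of the gene, and capitals mark a motif match on either strand. Positions are counted from the start of transcription, with base 1 the start and −1 the base before it. The first sequence is the 250 bases before the start of UFSP2, which encodes a protease that matures and removes the ubiquitin-like protein UFM1, at chr4:185425965-185426214 on the minus strand. It holds a cyclic AMP response element (CRE, TGACGTCA) from −48 and GC boxes (GGGCGG or its complement) from −95 and −8.
UFSP2 promoter: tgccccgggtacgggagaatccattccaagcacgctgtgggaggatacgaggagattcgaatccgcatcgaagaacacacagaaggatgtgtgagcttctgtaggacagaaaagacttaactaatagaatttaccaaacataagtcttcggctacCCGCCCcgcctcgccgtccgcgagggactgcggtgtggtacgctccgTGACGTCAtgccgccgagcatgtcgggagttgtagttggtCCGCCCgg
The second is from FLCN, the gene of folliculin, which acts in amino acid signalling to mTORC1. It is the 250 bases at chr17:17237169-17237418 on the minus strand, with 1 GC box from −207. Positions here are counted from the most upstream FLCN start in the RefSeq promoter table, chr17:17237168. The gene's outermost coordinate is chr17:17237330, so part of this stretch lies inside the gene.
FLCN promoter: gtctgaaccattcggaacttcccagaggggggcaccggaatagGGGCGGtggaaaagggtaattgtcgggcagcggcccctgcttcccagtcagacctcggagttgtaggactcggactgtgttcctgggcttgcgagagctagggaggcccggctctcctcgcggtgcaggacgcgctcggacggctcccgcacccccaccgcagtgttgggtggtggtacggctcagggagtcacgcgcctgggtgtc

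Shorter stretches show the other motifs, each in the member with the highest BPP −log10 q whose promoter holds it. UQCRC2 encodes a core subunit of respiratory complex III; its stretch at chr16:21953221-21953320, plus strand, has a TATA box (TATAAA) from −93 and a CCAAT box in reverse (ATTGG) from −111. ZNF335, a zinc finger regulator, has an ETS site (CCGGAAG, here in reverse) from −72 at chr20:45972223-45972322, minus strand. CNPY4 has NRF1 sites (GCGCATGC) from −14 and −12 that overlap each other, at chr7:100119534-100119633, plus strand. HSPA9, the mitochondrial HSP70 chaperone, has an E-box (CACGTG) from −19 and GC boxes from −82 and −32 at chr5:138575402-138575501, minus strand. For the motifs that fell after the start, 30 bases are shown: a YY1 site (AAGATGG, in reverse) from base 9 of UQCRC2 at chr16:21953358-21953387, and a ZBTB33 site (TCTCGCGA) from base 21 of CDK16, a cyclin-dependent kinase, at chrX:47218312-47218341, plus strand.
UQCRC2, TATA and CCAAT: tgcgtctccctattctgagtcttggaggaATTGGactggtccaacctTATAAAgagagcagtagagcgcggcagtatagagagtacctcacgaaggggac
ZNF335, ETS: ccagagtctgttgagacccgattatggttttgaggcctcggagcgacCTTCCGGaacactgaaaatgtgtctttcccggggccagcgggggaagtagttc
CNPY4, NRF1: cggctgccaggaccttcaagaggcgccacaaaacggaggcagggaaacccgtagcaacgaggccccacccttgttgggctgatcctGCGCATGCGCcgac
HSPA9, E-box: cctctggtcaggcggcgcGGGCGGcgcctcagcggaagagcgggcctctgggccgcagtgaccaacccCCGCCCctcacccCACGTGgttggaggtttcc
UQCRC2, YY1: ggcctccgccaCCATCTTgctttcctttaa
CDK16, ZBTB33: aaaagtcatctTCTCGCGAacctttaaaat

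The peaks were of moderate size. Their median width was 626 bp in BPP (interval 613 to 640) and 681 bp for the CTR peak they overlapped. The fold of a peak, the authors' enrichment ratio, whose denominator the sources used here do not describe, had a median of 5.37 in BPP (5.31 to 5.45), with members from 1.88 to 19.4, and 5.51 in CTR. Median −log10 q, the authors' multiple-testing-adjusted significance, was 11.0 in BPP and 10.7 in CTR. All BPP peaks together had a median fold of 4.36 and a median −log10 q of 7.11. Because members had to be found in both lists, they leave out the weakest peaks of each, and these medians describe the choice. Among the other shared peaks, chosen the same way, median BPP fold was 5.196 between the ends of several genes, 4.22 inside genes and 4.82 outside genes.

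The member with the highest BPP −log10 q was the UFSP2 peak, chr4:185425446-185426424, with a fold of 14.9 and −log10 q of 238 in BPP and 14.5 and 195 in CTR. FLCN followed at chr17:17236537-17237674, with a fold of 10.6 in BPP and 11.3 in CTR. The HSPA9 peak had 12.2 in both lists. Each of these 3 peaks spanned its gene's start, with the BPP summit 107, 46 and 102 bp before it. For FLCN this start was the gene's outermost coordinate, chr17:17237330, and not the start used for the sequence above. ERRFI1, a feedback inhibitor of the EGF receptor, had folds of 12.3 and 10.7, and its BPP summit lay farther out, 696 bp before the start.

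RNA-binding proteins were among the 12 highest members at genes with an approved symbol. TARDBP, which encodes the splicing regulator TDP-43, had the highest BPP fold of these 12, 16.3, with 14.0 in CTR. LRPPRC, which stabilises mitochondrial mRNAs, had 13.9 in BPP and 12.4 in CTR. CWC25, a splicing factor, had 11.1 in both. Others were UQCRC2 (14.0 in BPP, 12.8 in CTR), ZNF335 (11.3 and 8.67), NOCT (12.8 and 12.9), a circadian-regulated phosphatase of NADP cofactors, and FARSB (14.0 and 13.6), a subunit of phenylalanine-tRNA synthetase. All 12 ranked within the first 80 of all BPP peaks by −log10 p and within the first 196 of all CTR peaks. By CTR −log10 q the top 12 brought in PSMD11, a proteasome lid subunit, with a fold of 8.37 in BPP and 11.2 in CTR, and UPF2 of nonsense-mediated decay, with 13 and 13.6.

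Across members the fold in BPP and in CTR rose and fell together, with a Spearman correlation of 0.675 over the 2833 peaks. Peaks within a library share its depth and its background, and both lists come from the same line, so the value is a description. Width was less alike, with a Spearman correlation of 0.416.

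**Figure D1:**
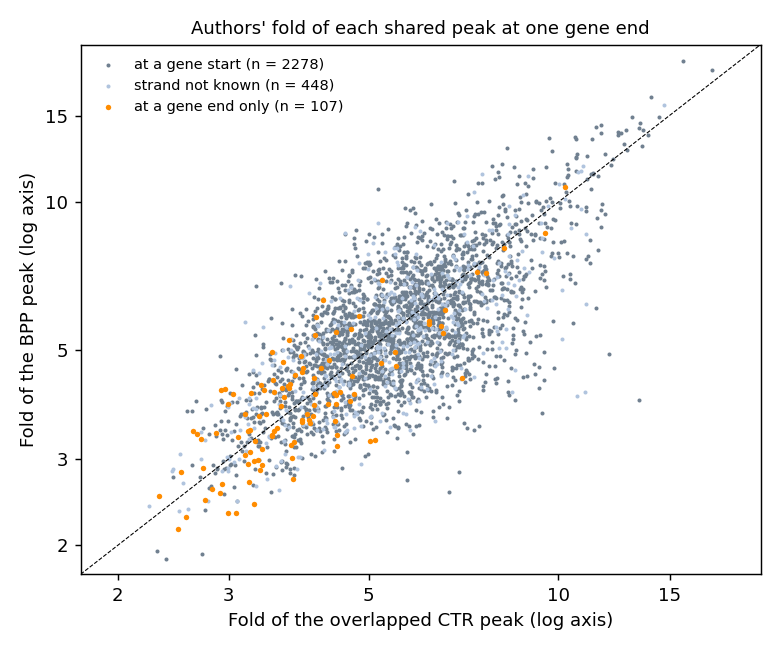
Authors' fold of each of the 2833 peaks in the BPP list (vertical, log axis) against the fold of the CTR peak it overlapped most (horizontal, log axis); 1 point is 1 peak, orange points are the 107 peaks at the end of transcription only, and the dashed line marks equal values. The points lie along the line (Spearman correlation 0.675), and the orange points gather at low folds, with a median of 3.87 in BPP.

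The position of the peaks within the shared region was close but seldom identical. The median distance between a BPP summit and the CTR summit was 131 bp (126 to 140). It was within 100 bp in 41.7% of members, within 200 bp in 64.6% and within 500 bp in 90.5%, and 61 pairs of summits fell on the same base. NDC1, RNF187 and STAM had summits at the same base in both lists. The largest distances among the 500 members with the highest −log10 p were at NFE2L2, the oxidative stress regulator, with 1492 bp, GSG1 with 1451 bp and DDX3X, an RNA helicase, with 1006 bp. At NFE2L2 the BPP peak of 746 bp had its summit 485 bp before the start, and the CTR peak of 1924 bp had its summit 1007 bp after it. Of all members, 2812 overlapped 1 CTR peak only, and in 74.1% the overlap covered at least 50% of both peaks. Shared peaks outside genes had closer summits, within 100 bp in 50.3%, a difference of −8.60 percentage points for the members (−11.4 to −5.75).

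The peaks were almost all at the start of transcription. A gene's strand could be read from the RefSeq promoter table for 2385 members. Of these, 2278 (95.5%, 94.6 to 96.3) reached the 1 kb window of a start, and 107 lay at the other end only. Shared peaks between the ends of several genes were at a start in 96.6%, and the difference of −1.10 percentage points had an interval from −2.47 to 0.52.

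Summits had a maximum on each side of the start, which for both lists was the annotated start nearest to the BPP summit. Binned by 100 bp, the share of the 2278 start peaks with their summit in a bin was highest around 200 bp into the gene, with 15.5% in BPP (14 to 17) and 20.3% in CTR (18.7 to 22). A smaller maximum lay around 200 bp before the start, with 8.08% in BPP and 7.64% in CTR. Between them the bin around 100 bp before the start held 5.58% in BPP and 6.01% in CTR. The median summit lay 103 bp into the gene in BPP and 127 bp in CTR, and 62.2% of BPP and 65.5% of CTR summits were downstream of the start. Both summits were on the same side of the start in 82.7%.

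**Figure D2:**
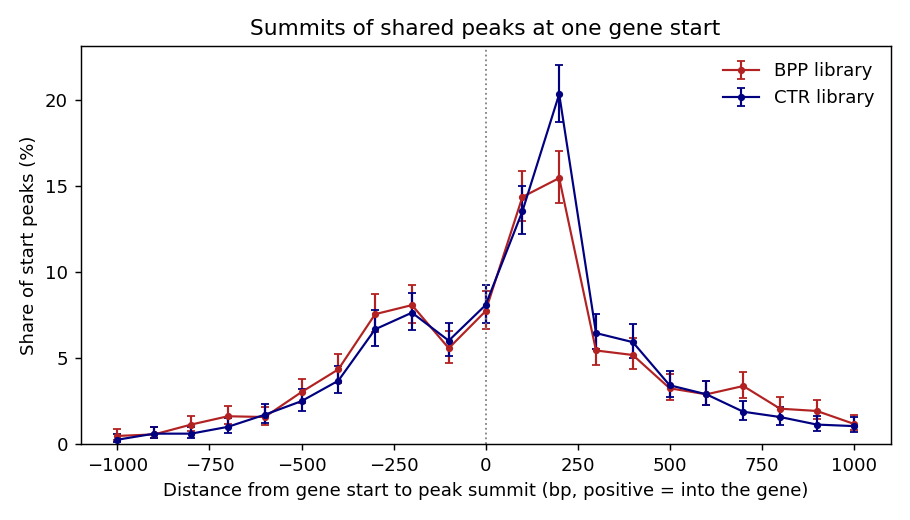
Share of the 2278 start peaks (vertical, %) whose summit falls in each 100 bp bin, for the BPP and the CTR library. Distance (horizontal, bp, positive into the gene) is from the annotated start nearest to the BPP summit, for both libraries. Bars are 95% Wilson intervals. Both lines have a high point at 200 bp into the gene, 15.5% in BPP and 20.3% in CTR, a lower one before the start and a dip between them.

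The start peaks fell into 3 forms by their extent. Peaks that spanned the start numbered 1289 in BPP (56.6%), with a median width of 733 bp and a median fold of 5.93. Those that began after it numbered 575, with a median width of 508 bp and a fold of 4.94. The other 414 ended before it, with 514 bp and 5.00. Of the CTR peaks at the same genes 66.5% spanned the start. The form was the same in both lists for 75.7% of start peaks.

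Some genes had several member peaks. A second member peak was found at 94 genes, and TRIM52 had 3. The smallest gap between such peaks had a median of 538 bp, and at 79 of the 94 genes all gaps were up to 2 kb. At 12 genes a start peak was joined by one at the other end of the gene. At 45 of the 78 genes with a known strand a start lay in a gap, and some of these gaps ran along the gene. PRKCI, an atypical protein kinase C, had a BPP peak of fold 14.1 with its summit 184 bp before the start. Another had a fold of 3.96 and its summit 603 bp after the start. A single CTR peak of fold 13.4 overlapped both in part. HDAC2, a class I histone deacetylase, had folds of 12.3 and 3.35 in BPP and 10.7 and 3.78 in CTR. BRAT1, which binds the DNA damage kinase ATM, had 9.95 and 3.75 in BPP and 8.95 and 2.58 in CTR. In each of these 3 genes, and in RNF187 (8.29 and 3.58), the peak with its summit before the start was the higher one in BPP. At TRIM52 the highest of the 3 had a fold of 5.37, with its summit 174 bp after the start.

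The 107 peaks at the end of transcription only were a weaker class. Their median fold was 3.87 in BPP (3.56 to 4.10) and 3.75 in CTR, against 5.48 and 5.596 for start peaks, and they were more often inside another coding gene (13.1% against 4.92%, start minus end −8.17 points, −15.9 to −2.95). The highest of them by −log10 q, with a fold of 10.7 in BPP and 10.2 in CTR, was at LOC124904581, which has no approved symbol and was named after its values were seen. The next lay at ELL, an elongation factor of RNA polymerase II, with a fold of 5.42 in BPP and 6.57 in CTR at chr19:18441979-18442570. The peak at IGBP1C (8.66 and 9.51) covered the whole of an annotated small nuclear RNA gene. CRIP2 had the widest member of all, 2822 bp at chr14:105481093-105483914, with a fold of 3.25 in BPP and 3.301 in CTR. The peaks at VPS52, ADAMTSL4 and PTPN6 reached a lncRNA gene end as well.

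Wide members included the start of BRD2, a bromodomain reader of acetylated histones, with 2308 bp in BPP and 1588 bp in CTR and folds of 4.33 and 4.75. NME4 (2388 bp in BPP, 1431 bp in CTR) and SYTL1 (2296 bp and 704 bp) were also among the 5 widest. Over 1000 bp in BPP were 15.6% of members and 23.7% of the peaks between the ends of several genes, a difference of −8.16 points (−11.3 to −5.16). A wider peak reaches the window of a further gene more easily, so the rule itself sorts peaks by width. The comparison cannot separate this effect of the selection from any other difference in width, and nothing more is read from it.

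Although each peak reached only 1 protein-coding gene's end, many reached a long non-coding RNA (lncRNA) gene. A lncRNA gene end lay within 1 kb of 27.6% of the members (26 to 29.2). This was 7.54% for shared peaks between the ends of several coding genes (difference 20.03 points, 17.5 to 22.3), 6.96% for shared peaks inside genes and 15.1% for those outside. The rule admits 1 coding gene and places no limit on lncRNA genes. It also sets how each of these sets lies relative to coding gene ends. No share over all coding gene starts was computed, for these shares or for the strands of the pairs below. The differences therefore cannot be told apart from the selection. Of 608 pairs of a start peak's gene and a lncRNA with known strands, 531 (87.3%, 84.5 to 89.7) had the lncRNA on the opposite strand with its start within 1 kb. The median distance between these starts was 185 bp. Among them, ERRFI1-DT started 184 bp from ERRFI1, STAM-DT 233 bp from STAM, NQO1-DT 167 bp from NQO1 and MIR22HG, the host of miR-22, 313 bp from WDR81.

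Some of the peaks overlapped small RNA genes, in whole or in part. The share of all annotated small RNA genes that members overlap was not computed, so these counts are a description only. There were 7 small nuclear RNA genes, among them RNU12, RNU11 and RNU4-2, which serve in splicing, RNU7-1, which serves in histone mRNA processing, and RN7SK, which holds the elongation factor P-TEFb inactive. Of these 7 genes, 5 lay whole under a peak. The peak named here for GSTA4 covered 198 of the 332 bases of RN7SK, with a fold of 10.9 in BPP and 10.2 in CTR. RMRP, the RNA of the RNase MRP enzyme, lay whole under the peak of CCDC107 (5.36 in BPP, 4.86 in CTR). In such places acetylation of the coding gene and of the small RNA gene cannot be told apart.

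Of 17 microRNA genes that members overlapped, 13 lay whole under the peak. This count too has no share over all annotated microRNA genes beside it. The peak of NSRP1, a splicing regulator, chr17:30116591-30117447 (fold 7.38 in BPP, 6.46 in CTR), held MIR423 and MIR3184, which are annotated on opposite strands of the same stretch. Their mature 5p forms share the seed GAGGGGC, bases 2 to 8, shown in capitals with those of the 3p forms and of the microRNAs under the ATF2 and CWC25 peaks, which had the highest −log10 q of this group.
hsa-miR-423-5p: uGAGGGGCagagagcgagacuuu
hsa-miR-3184-5p: uGAGGGGCcucagaccgagcuuuu
hsa-miR-423-3p: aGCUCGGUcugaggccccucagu
hsa-miR-3184-3p: aAAGUCUCgcucucugccccuca
hsa-miR-933: uGUGCGCAgggagaccucuccc
hsa-miR-4727-5p: aUCUGCCAgcuuccacagugg
MIR933 lay under the ATF2 peak (8.27 in BPP, 7.16 in CTR) and MIR4727 under that of CWC25. The sequences are RefSeq's, and nothing here measures the microRNAs themselves.

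The promoters under the peaks differed in sequence from promoters of genes without a peak. One promoter per gene, 250 bases before to 50 after its most upstream start, was taken from the RefSeq table; 1605 lay under a member peak of the same gene, and 9275 belonged to genes with no gene-end peak in BPP or CTR. The median ratio of observed to expected CpG was 0.842 in the first (0.830 to 0.852) and 0.628 in the second (0.609 to 0.642). Median GC content was 62.3% and 60.7%. Promoters with a CpG ratio of at least 0.6 and GC of at least 55%, called CpG-rich here, made up 76.6% and 47.5%.

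The motif that differed most was the ETS site, bound by the ETS factor family, of which GABPA is known at housekeeping promoters. It was in 27.1% of member promoters (25 to 29.3), in 7.90% of promoters without a peak and in 14.1% of all 15812, a difference of 19.2 points from those without a peak (17 to 21.5). The site of YY1, a zinc finger factor often found just after the start, was in 11.1% against 4.79%. Of its matches under members 60.4% were centred after the start, against 47.4% of those in all promoters. The ZBTB33 site was in 4.49% against 0.604%, the site of NRF1, a regulator of nuclear genes for mitochondria, in 6.36% against 2.65%, and the CRE in 4.42% against 1.82%. The CCAAT box, bound by NF-Y, was in 41.9% against 35.2%. For each of these the interval of the difference excluded 0. Each motif was counted on its own, matches of different motifs may overlap, and the intervals are not adjusted for the 9 motifs. The E-box of MYC and USF was in 8.47% against 7.90%, and the interval from −0.816 to 2.13 points covered 0.

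Other differences changed when only CpG-rich promoters were compared. The GC box, bound by SP and KLF factors, was in 67.5% of member promoters and 50.7% of those without a peak. Among CpG-rich promoters only, a comparison chosen after the first values were seen, the order turned: 74.5% of 1229 against 84.6% of 4406, a difference of −10.1 points (−12.9 to −7.54). Median GC content was then 64.3% under members and 70.7% without a peak. The TATA box was in 5.92% against 12.7% of all promoters compared, and in 4.48% against 4.24% of CpG-rich ones, where the interval from −0.972 to 1.65 points covered 0. TATAAA at any place in the 300 bases was counted. In member promoters 39.2% of its matches were centred in the 100 bases before the start, against 52.7% in all promoters. From 50 to 25 bases before the start there were 1.93 matches per 100 member promoters and 4.25 per 100 of all promoters. The ETS site kept its order among CpG-rich promoters, 28.4% against 13.1%, as did the YY1 site, 10.7% against 4.54%, and the ZBTB33 site, 5.29% against 1.09%.

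**Figure D3:**
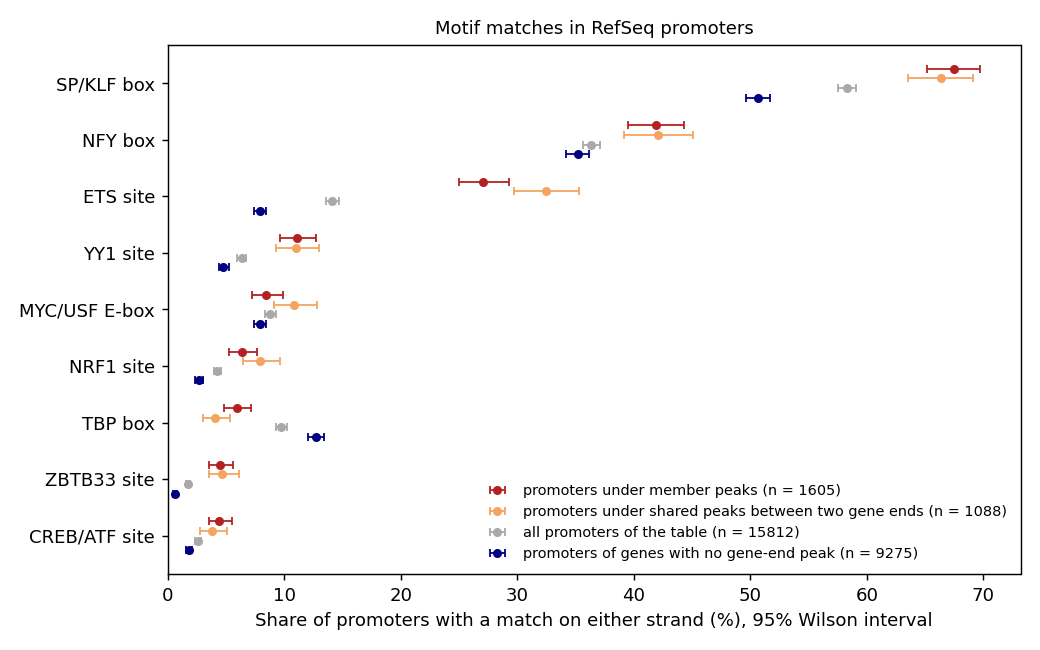
Share of RefSeq promoters (horizontal, %) with at least 1 match to each motif on either strand, in 4 sets of promoters; bars are 95% Wilson intervals, and the GC, CCAAT and TATA boxes and the CRE are labelled by the factors that bind them (SP/KLF, NFY, TBP and CREB/ATF). Members lie far to the right of promoters without a peak for the ETS site, 27.1% against 7.90%, and to the left for the TBP box, 5.92% against 12.7%.

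Promoters under shared peaks between the ends of several genes differed from the members in few motifs. They held the ETS site more often, in 32.4%, a difference of −5.34 points for the members (−8.88 to −1.83), the E-box more often, in 10.8% (difference −2.37, −4.73 to −0.120), and the TATA box less often, in 4.04% (difference 1.87, 0.170 to 3.50). For the CCAAT box, GC box, CRE, NRF1, YY1 and ZBTB33 sites the interval of the difference covered 0. Within the members, the 321 promoters with the highest and the 321 with the lowest peaks were compared by BPP −log10 p. The YY1 site was the one motif of 9 whose interval excluded 0, with 15% against 8.72% (difference 6.23, 1.22 to 11.3). Member peaks at a promoter with a YY1 site had a median fold of 6.13 in BPP (5.84 to 6.52) and 6.19 in CTR (5.75 to 6.63). Those at a promoter without one had 5.75 (5.67 to 5.89) and 5.83 (5.72 to 5.93). The intervals overlapped in both lists, and a peak did not have to cover the site itself.

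Of 36 gene lists, 26 had a share above the 13.7% of all protein-coding genes. This count takes no account of the intervals, and those of several of these lists held 13.7%. Examples were lysosome, vacuolar ATPase and autophagy genes (14.3%, 7.95 to 24.3), RAB GTPases (15.9%, 8.86 to 26.8) and mesenchymal markers (28.6%, 8.22 to 64.1). Proteasome genes, which build the protease that degrades ubiquitin-tagged proteins, had the highest share, 25 of 49 (51%, 37.5 to 64.4). Their highest peaks were at PSMC1, an ATPase of the base (fold 12.4 in BPP, 11.1 in CTR), PSMD11, and PSMD1 (7.77 and 10.5), a large scaffold subunit. Among translation genes, such a peak was found at 23 of 55 initiation factors, led by EIF2S3 (11.6 and 10.7), 34 of 84 cytosolic ribosomal proteins, led by RPL19 (8.68 and 7.37) and RPL21 (11.4 and 11.3), and 14 of 35 aminoacyl-tRNA synthetases, led by WARS2 (10.3 and 8.17). Mitochondrial ribosomal proteins had 23 of 77.

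Lists of RNA processing genes, nucleoporins, and anaphase-promoting complex and cyclin genes lay above the background as well. DEAD-box and DEAH-box helicases, which remodel RNA, had 21 of 53, nucleoporins 8 of 21, with NUP85 (9.79 in BPP, 9.45 in CTR), and spliceosome proteins with SR proteins and hnRNPs 24 of 81, with HNRNPA0 (9.75 and 11.0). Anaphase-promoting complex and cyclin genes had 17 of 42. ZNF zinc finger genes, a family of DNA-binding repressors, had 137 of 509 (26.9%, 23.2 to 30.9).

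**Figure D4:**
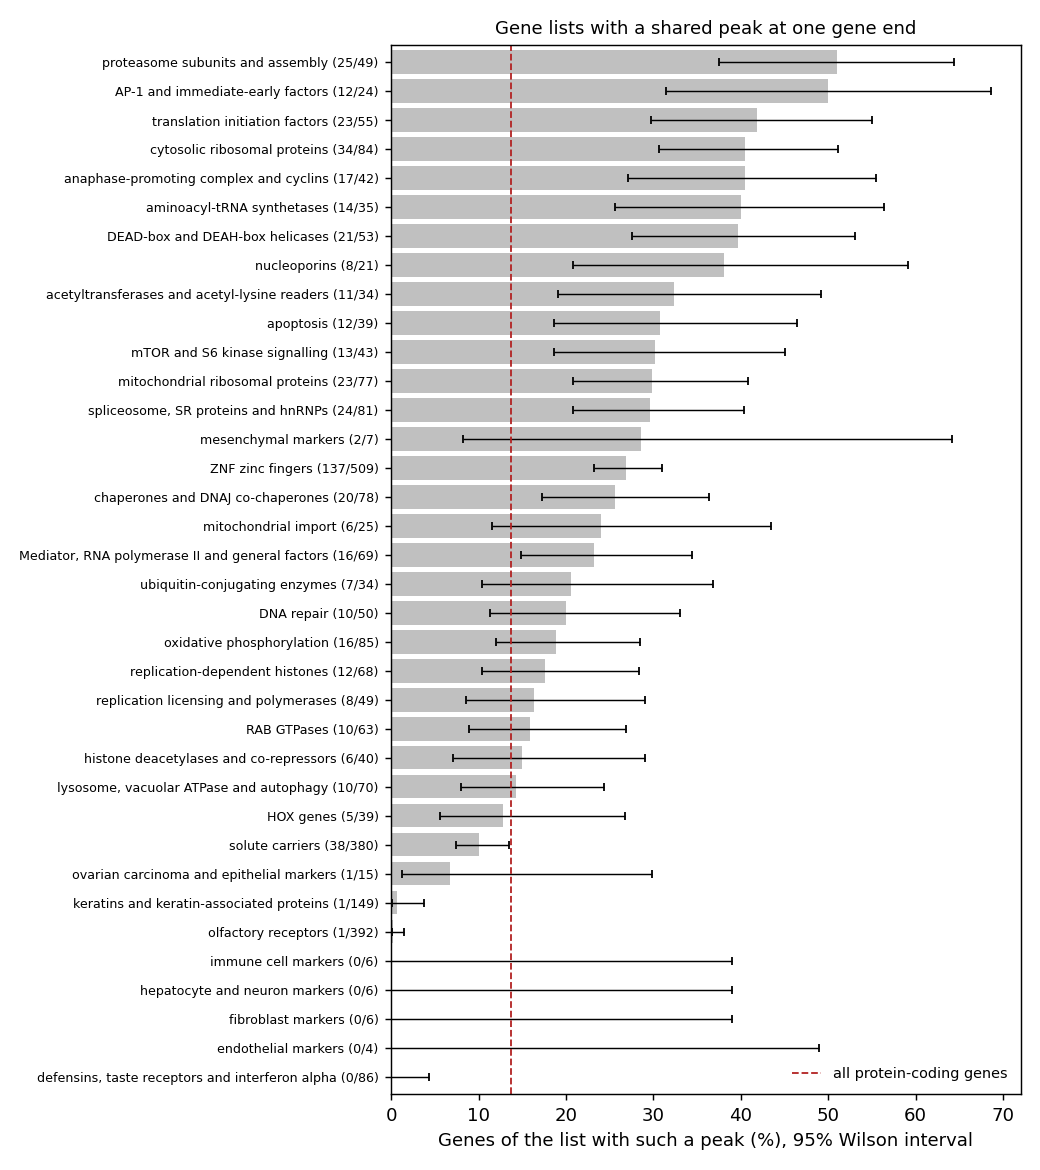
Share of the genes of each of 36 lists (horizontal, %) with a shared H3K27ac peak at one gene end; bars are 95% Wilson intervals, numbers in brackets are genes with a peak and genes in the list, and the dashed line is the 13.7% of all protein-coding genes. Proteasome genes are at the top with 51%, and lists of genes of other tissues are at or near 0, the smallest of them with wide intervals that hold the dashed line.

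Genes near the study's own subject were mixed. The series title names HDAC1 and RPS6. HDAC1 had no member peak, which by the rule does not mean that it had no H3K27ac peak. RPS6, a ribosomal protein phosphorylated by S6 kinases, had a member peak with a fold of 6.83 in BPP and 6.15 in CTR. Of the mTOR and S6 kinase list, 13 of 43 genes had one, with FLCN, RPTOR (7.07 and 7.13) and the cap-binding protein EIF4E (6.84 and 8.12). Histone deacetylase and co-repressor genes had 6 of 40 (15%), near the background for member peaks, among them HDAC2 and HDAC4 (7.53 and 8.11). Of the same 40, 5 had only a shared peak between the ends of several genes, and 17 had some other gene-end peak. The remaining 12 had no gene-end peak in BPP or CTR, as had 61.8% of all protein-coding genes. Acetyltransferases and readers had 11 of 34, with KAT5 (8.17 and 7.99). AP-1 and immediate-early genes, which respond fast to growth signals and stress, had 12 of 24 (interval 31.4% to 68.6%). The median fold of their peaks was 5.01 in BPP and 4.98 in CTR, against 5.37 and 5.51 for all members. KLF6 had 5.48 in BPP and 5.32 in CTR, ATF2 8.27 and 7.16, JUND 5.08 and 3.40, and EGR1 5.26 and 5.46. The peak nearest to FOS missed the gene-end window by 1 bp.

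Lists of genes for other tissues were nearly empty. Olfactory receptors had 1 of 392, OR2V2 (6.81 in BPP, 6.99 in CTR), and keratins and keratin-associated proteins 1 of 149, KRT18. Defensins, taste receptors and interferon alpha genes had 0 of 86, with an interval up to 4.28%. Immune, endothelial, fibroblast, hepatocyte and neuron markers had none, of 4 to 6 genes each. The upper bounds of their intervals were 39.0% to 49.0%, above the 13.7% of all genes. Lists this small therefore cannot be told from the background. Solute carriers had 38 of 380 (10.0%) and HOX genes 5 of 39. Of 15 ovarian carcinoma and epithelial markers only KRT18 was a member (3.71 and 4.00); KRT8 had a shared peak between the ends of several genes and MSLN a peak in BPP only. PAX8, WT1, MUC16, EPCAM and CDH1 had no gene-end peak in either list; peaks elsewhere in or around these genes were not counted. Of 7 mesenchymal markers, VIM (3.55 and 5.05) and ZEB1 (5.17 and 5.19) were members, TWIST1 had a gene-end peak in CTR only, and CDH2, FN1, ZEB2 and SNAI2 had none.

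The members were spread over all 23 chromosomes used. The share of a chromosome's coding genes with such a peak was highest on chromosome 1 (16.9%, 15.4 to 18.6) and chromosome 3 (16.5%), and lowest on chromosome 13 (6.21%, 4.10 to 9.31) and chromosome X (7.43%, 5.85 to 9.39).

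The edges of the rule were thinly populated. An overlap with CTR of under 50 bp was found in 37 members, and the smallest were 1 bp at TPCN2, 2 bp at LRRFIP2 and 3 bp at PCIF1. On the other side, SNX24 missed its CTR peak by 1 bp, and NCAPH and GTF2H2C by 2 bp. At the window's edge PPP3R1 reached it by 2 bp and FBXW4 by 4 bp, and LZTS2 missed it by 3 bp. INO80 and IFITM3 were kept with an IgG peak 33 and 56 bp away, and NUP153, SP1 and TPM2 were left out for 9, 11 and 14 bp shared with IgG. In all, 23 members had an IgG peak within 1 kb.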

How the data were processed

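H3K27ac and IgG CUT&Tag libraries of A2780 cells were grouped by their titles, 1 library per group. The submitters' processing notes name Bowtie2 2.4.1, deepTools 3.3.0 and fastp, and the build GRCh38.p13 (hg38). The caller of the peaks and its settings are not given in the sources used here. Each library has its own deposited peak list. The deposited fold is an enrichment ratio with no stated denominator, the deposited −log10 p and −log10 q are the caller's, and the deposited score is the whole part of 10 times −log10 p. Folds were used only to describe or rank peaks within a list. No reads per library are known.

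Overlap was counted from 1 bp. Genes, promoters (250 bases before to 50 after a start) and microRNAs are NCBI RefSeq, GRCh38.p14, whose chromosome coordinates equal those of the earlier patch; 2306 of the 2738 genes had a promoter entry giving the strand. Shares carry Wilson, differences Newcombe and medians order-statistic intervals, which take peaks as independent and hold no spread between cultures. The 9 motifs were searched by exact letters on both strands. The members and the 36 gene lists were chosen with earlier results of these data known. Genes were named by rule: the 12 highest by −log10 q in each list, the 5 widest, the 5 genes with the most peaks, the 8 highest peaks at the end of transcription only, up to 4 of each gene list, those at the edges of the rule, and the largest and smallest summit distances; lncRNA and small RNA examples and markers without a peak were chosen after their values were seen. The rule skips genes that lack an approved symbol, and some genes that it takes are left out of the text. Results were recomputed under 8 other settings. Python 3.11.15, numpy 2.4.6, pandas 2.3.3, scipy 1.17.1, statsmodels 0.14.6 and matplotlib 3.10.9 were used; overlaps were checked against bedtools 2.31.1 and the motif search tested on simulated data.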

Additional observations from a re-analysis of the deposited data

How the results depend on the processing

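No paired analysis was possible because each group has 1 library. The 2833 peaks and 2738 genes fell to 1373 and 1366 with a fold of at least 5 in both lists and to 1168 and 1157 with the top 5000 peaks of each list, since fewer peaks enter. Under the same 2 settings the share at the start of transcription was 99.1% and 97.9%, and the share over a lncRNA gene end 29.9% and 30.3%. With a window of 2 kb these shares were 93.4% and 29.97%, and with a window of 500 bp the lncRNA share was 24.3%. Requiring overlap of 50% of both peaks, a −log10 q of at least 5, no IgG peak within 1 kb, or starting from CTR rows left these 4 results within 1.5 times (counts) or within their intervals (shares). The medians of summit distance, BPP coverage, fold, width and CpG ratio were recomputed as well. Of all results other than motifs and gene lists, 9 moved beyond such limits and 1 did not with a fold of at least 5. The top 5000 peaks gave the same counts. Over the 8 settings 33 such cases moved and 47 did not. No motif share left its interval under the 8 other settings; among CpG-rich promoters only, chosen after seeing the data, 2 of 9 did, the GC box at 74.5% and the TATA box at 4.48%. The number of genes with a peak changed by more than 1.5 times in 22 of the 36 gene lists with a fold of at least 5, in 25 with the top 5000 peaks, and in 57 cases over the 8 settings. Between 24 and 28 of the 36 gene lists lay above the share of all genes under each setting, counted without regard to their intervals. Depth is unknown, so a peak missing from a list is a statement about that list.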
